A study of Homo sapiens with 6 samples.

Results

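YAP1, WWTR1, TEAD1 to TEAD4, CTGF, CYR61, ANKRD1, and AMOTL2 form the transcriptional end of the Hippo pathway. They were taken by name: every array probe whose gene name is one of these 10 genes was used, out of 36337 gene names on the array. The 10 genes have 11 probes, of which 9, one each for 9 genes, were well above background often enough to be tested, against 15281 gene names with such a probe. CTGF and a second WWTR1 probe were not tested. The arrays were run to see which genes respond to knockdown of the long noncoding RNA DLEU1 in oral squamous cell carcinoma (OSCC) cells. HSC-3, KON, and Ca9-22, 3 established OSCC cell lines, received either siDLEU1-2, a small interfering RNA (siRNA) against DLEU1, or a control siRNA (siCtrl). RNA was taken at 72 h, and every line has 1 one-color array per siRNA, 6 arrays in all. The lines are the only replicates, so a fold change inside 1 line carries no error of its own.

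YAP and TAZ, the proteins of YAP1 and WWTR1, are transcriptional coactivators that do not bind DNA themselves. When the Hippo kinases MST and LATS are active, they are phosphorylated and kept in the cytoplasm. When the kinases are inactive, they enter the nucleus and bind TEAD factors at target genes. In squamous epithelia this output is known to respond to cell density, cell shape, and attachment. The arrays measure RNA, and they do not show where YAP and TAZ proteins are or whether they are phosphorylated.

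TEAD factors recognize a core of 6 bases, CATTCC, also called M-CAT. It was searched on both strands in the 250 bases before the transcription start, using RefSeq promoters of GRCh38.p14. Promoter sequences were matched for 7 of the 10 genes, 10 windows in all, and 4 of these windows hold the core. Among all 35116 windows of the same length, 11.9% hold it. TEAD1, TEAD4, and CYR61 had no promoter entry. The windows of ANKRD1 and CTGF, the targets with more than 1 match, are shown whole, and a stretch of 30 bases is shown for YAP1 and for AMOTL2. Capitals mark the core, which reads GGAATG where it lies on the opposite strand, and all sequences run 5′ to 3′ in the direction of the gene.
ANKRD1, chr10:90921088-90921337, minus strand: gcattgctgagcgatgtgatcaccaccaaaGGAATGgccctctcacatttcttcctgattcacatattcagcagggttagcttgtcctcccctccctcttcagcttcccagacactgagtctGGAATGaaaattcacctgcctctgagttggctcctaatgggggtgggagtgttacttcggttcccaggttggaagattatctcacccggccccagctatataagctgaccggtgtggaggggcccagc
CTGF, chr6:131951373-131951622, minus strand: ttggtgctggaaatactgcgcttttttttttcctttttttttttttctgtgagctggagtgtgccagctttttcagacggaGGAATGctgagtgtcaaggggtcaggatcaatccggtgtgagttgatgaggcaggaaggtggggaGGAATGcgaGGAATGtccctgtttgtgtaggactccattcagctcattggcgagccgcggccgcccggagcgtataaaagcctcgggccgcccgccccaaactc
AMOTL2, chr3:134374499-134374528, minus strand: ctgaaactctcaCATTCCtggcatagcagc
YAP1, chr11:102110273-102110302, plus strand: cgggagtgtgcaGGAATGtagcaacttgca
The ANKRD1 window has 2 matches, whose first bases lie 220 and 128 bases before the start. The CTGF window has 3, at 169, 104, and 95 bases, and the nearer pair stand close together. AMOTL2 has 1 match at 69 bases, in the second of its 2 RefSeq promoters, and YAP1 has 1 at 162 bases. The windows of WWTR1, TEAD2, and TEAD3 and the first AMOTL2 promoter do not hold these letters. A match describes the sequence only, and no binding was measured here.

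The level of a probe is its log2 processed signal minus the 75th percentile of its array, so 0 marks a probe as bright as that percentile, and 1 unit is 2-fold. Levels of different probes were not set against each other. DLEU1, the gene knocked down, went from 1.39 to -2.71 in HSC-3, from 2.16 to -1.48 in KON, and from 1.56 to -1.88 in Ca9-22. This is 17.1-fold, 12.4-fold, and 10.8-fold lower (limma adjusted p = 0.0227), in the direction the labels give. The share of probes well above background ran from 43.0% to 45.7% over the arrays. All 8 markers of squamous epithelium were well above background on 5 arrays, and TP63 alone was not on the siDLEU1-2 array of Ca9-22. Of 9 markers of leukocytes, endothelium, and fibroblasts, 3 to 5 were, with CD68, VWF, and COL1A1 on all 6 arrays and COL3A1 and LUM on none. Whether these moved with the genes described here was not tested.

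Of the 9 tested probes, 1 was called by limma at an adjusted p below 0.05, that of AMOTL2, and it rose. An array reads the RNA of a whole culture, so more cells that express a gene and more RNA per cell cannot be told apart. Over all 19956 probes kept, 8.5% were called in either direction and 3.98% were called higher. ANKRD1 was the only one over 2-fold in all 3 lines, where 4.38% of all probes were. Probes of YAP1, TEAD1, TEAD3, CYR61, ANKRD1, and AMOTL2, 6 of the 9, were higher after siDLEU1-2 in each line, against 26.9% of all probes, and none was lower in each line. YAP1 is in this count by a log2 fold change of only 0.02 in Ca9-22, which was -0.0005 with normexp background correction. In 2 of the 9, ANKRD1 and AMOTL2, every siDLEU1-2 array was above every siCtrl array, as in 5.67% of all probes. The median log2 fold change was 0.51 over the 9 probes and 0.01 over all probes. ANKRD1 passed the filter in HSC-3 and Ca9-22 only through the siDLEU1-2 arrays, where it is high, so its place in these counts was partly set by the filter. Of the 8 probes measured on every siCtrl array, 5 were higher in each line, 0 were over 2-fold in all lines, and the median was 0.40.

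**Figure D1:**
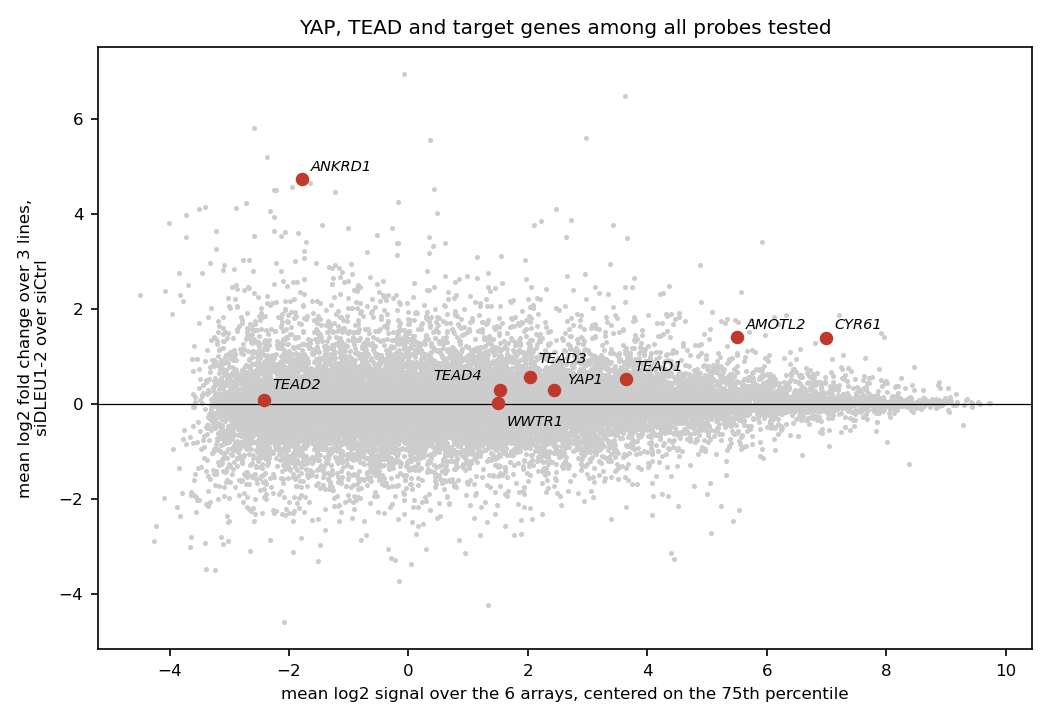
Mean log2 fold change of siDLEU1-2 over siCtrl across the 3 lines (vertical) against mean log2 level over the 6 arrays (horizontal) for the 19956 probes tested, with the 9 tested probes of the pathway in red. ANKRD1, at 4.72 with siCtrl arrays of HSC-3 and Ca9-22 not well above background, lies near the upper edge of the cloud, AMOTL2 and CYR61 lie above most probes of like brightness, and the coactivators and TEAD genes lie between 0.02 and 0.55.

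YAP1 is measured by 10 spots of 1 probe at chr11:102100584-102100643 (hg19, plus strand). The siCtrl array and then the siDLEU1-2 array, in this order here and for the genes that follow, read 2.43 and 2.91 in HSC-3, while KON gave 1.90 and 2.26 and Ca9-22 2.57 and 2.59. The siRNA groups overlapped, and the Ca9-22 arrays were nearly level. The mean log2 fold change was 0.29 ± 0.24 (SD, n = 3), and limma did not call it (adjusted p = 0.302, 95% interval -0.13 to 0.70). The spots of YAP1 on 1 array varied with an SD of 0.03 to 0.08 on the log2 scale, which is error within an array and says nothing of the spread between cultures.

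WWTR1, which encodes TAZ, was nearly level after siDLEU1-2. Its main probe, at chr3:149238593-149238652 (minus strand), read 0.94 and 1.005 in HSC-3, while KON gave 2.05 and 1.93 and Ca9-22 1.48 and 1.60. The mean log2 fold change was 0.02 ± 0.13 (SD, n = 3; adjusted p = 0.941). The 95% interval of -0.34 to 0.39 leaves room for changes of modest size either way. The direction turned with the centering, to -0.05 with arrays centered on the median. The second WWTR1 probe, for the transcript ENST00000474080, was not well above background on any of the 6 arrays.

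The coactivators were not ordered alike over the lines. With both arrays of a line averaged, WWTR1 was lowest in HSC-3, and it was higher in KON by 1.02 (adjusted p = 0.0157). Ca9-22 lay between them, and the arrays of the 3 lines did not overlap. It was 0.57 above HSC-3 (95% interval 0.12 to 1.02, adjusted p = 0.0574) and 0.45 below KON (adjusted p = 0.106), and limma called neither. YAP1 was lowest in KON, with 0.59 less than HSC-3 (adjusted p = 0.0721), and no pair of lines passed the test.

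The 4 TEAD genes encode the DNA-binding partners of YAP and TAZ. None was called after siDLEU1-2. TEAD3 and TEAD1 had the widest mean log2 fold changes of the 4. TEAD3 (chr6:35441520-35441579, minus strand) read 2.46 and 2.85 in HSC-3, while KON gave 1.18 and 1.83 and Ca9-22 1.63 and 2.24. It was higher in each line by a similar amount, but the lines lie so far apart that the siRNA groups overlapped. The mean log2 fold change was 0.55 ± 0.14 (SD, n = 3; adjusted p = 0.0810).

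TEAD1 (chr11:12965225-12965284, plus strand) read 3.71 and 4.50 in HSC-3, while KON gave 3.08 and 3.48 and Ca9-22 3.35 and 3.68. The widest difference, 0.80, was in HSC-3, and the mean log2 fold change was 0.51 ± 0.25 (SD, n = 3; adjusted p = 0.120). TEAD4, by its hg19 position a probe spanning 165 bases and so more than its own 60 (chr12:3149391-3149555, plus strand), read 1.73 and 1.72 in HSC-3, while KON gave 1.02 and 1.38 and Ca9-22 1.43 and 1.94. HSC-3 was level, and the other lines were higher after siDLEU1-2 (mean 0.29 ± 0.27, SD, n = 3; adjusted p = 0.318). TEAD2 (chr19:49845695-49845754, minus strand) was dim but well above background on all 6 arrays. It read -3.14 and -2.95 in HSC-3, while KON gave -2.36 and -2.40 and Ca9-22 -1.90 and -1.80 (mean 0.08 ± 0.11, SD, n = 3; adjusted p = 0.729).

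For TEAD1, TEAD2, and TEAD3, the called differences lay between lines. KON was below HSC-3 in TEAD3 by 1.15 (adjusted p = 0.0125) and in TEAD1 by 0.82 (adjusted p = 0.0338), and above it in TEAD2 by 0.67 (adjusted p = 0.0384). Ca9-22 was below HSC-3 in TEAD3 by 0.72 (adjusted p = 0.0346) and above it in TEAD2 by 1.20 (adjusted p = 0.0108). HSC-3 thus had the most TEAD1 and TEAD3 and the least TEAD2 of the lines, while for TEAD1 the step to Ca9-22 missed the test (0.59, adjusted p = 0.0756). For TEAD4 limma called no pair of lines.

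In all, 4 of the 9 probes were called between KON and HSC-3, where 36.2% of all probes were. Between Ca9-22 and HSC-3, 2 of 9 were called, against 36.6% of all probes. Between Ca9-22 and KON limma called 0 of 9, against 33.2%, although 2 of 9 had an unadjusted p below 0.05, as had 47% of all probes. These counts lie near or below the shares over all probes. The target genes CYR61, ANKRD1, and AMOTL2 were called between no pair of lines.

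**Figure D2:**
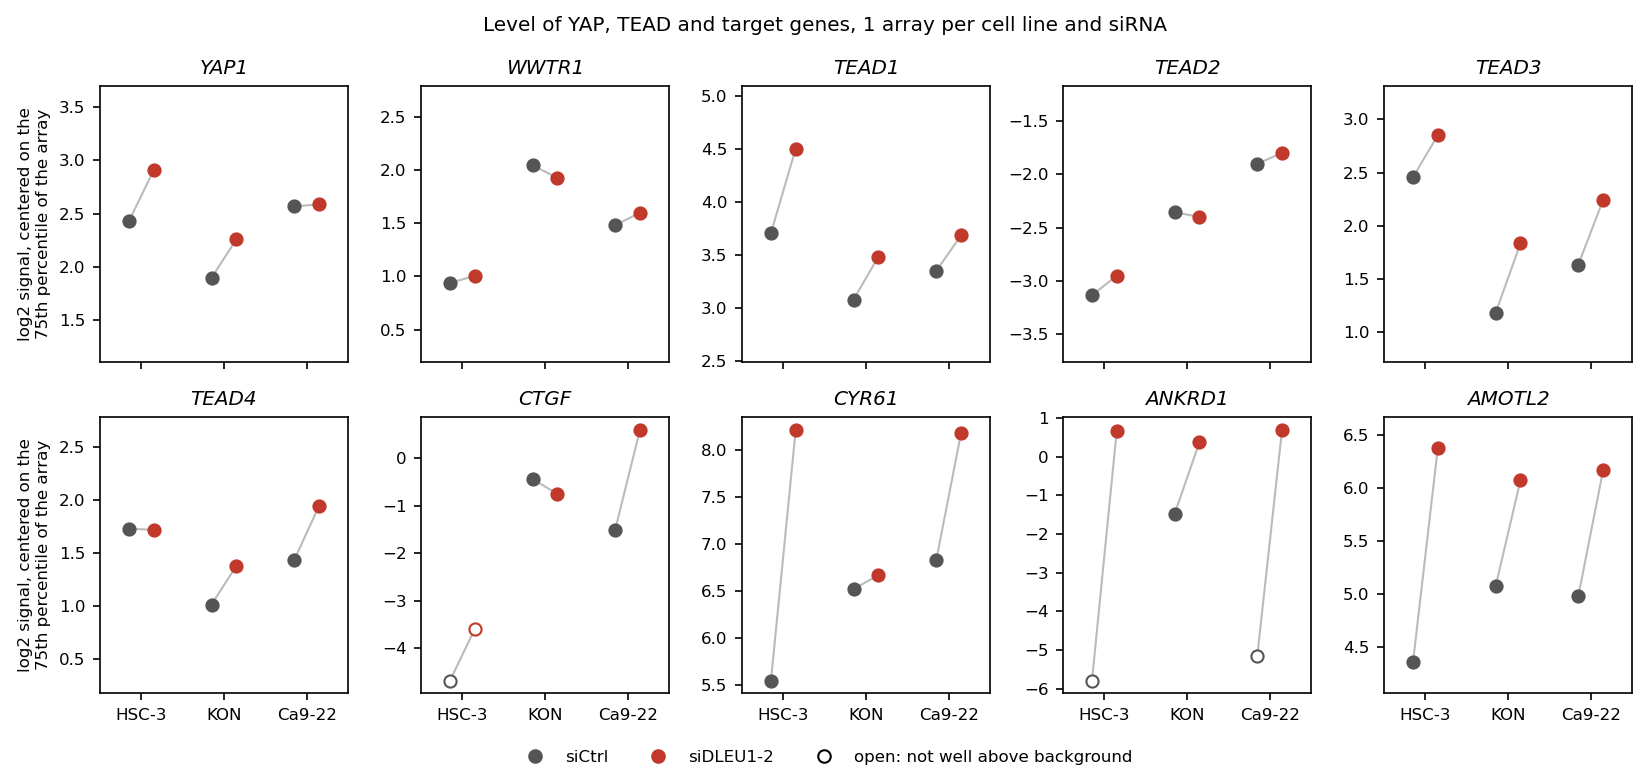
Level of each gene on the 6 arrays, as log2 signal centered on the 75th percentile of the array, with siCtrl in gray, siDLEU1-2 in red, the 2 arrays of a line joined, and open circles for arrays on which the probe was not well above background. The vertical axes differ between genes. For YAP1, WWTR1, and each TEAD gene, the widest difference between line means exceeds the mean difference between siRNAs. The former is the largest of several differences, so this is a description and no test. The siDLEU1-2 arrays of ANKRD1 and AMOTL2 all lie above the siCtrl arrays.

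Among the 9 tested genes, the targets ANKRD1, AMOTL2, and CYR61 had the widest mean differences after siDLEU1-2. In KON alone, CYR61 differed by less than YAP1, TEAD1, TEAD3, and TEAD4. AMOTL2 encodes angiomotin-like 2, a junction-associated scaffold that binds YAP and is itself a target of YAP and TEAD. Its probe lies at chr3:134074742-134074801 (minus strand). AMOTL2 went from 4.35 to 6.37 in HSC-3, from 5.07 to 6.07 in KON, and from 4.98 to 6.16 in Ca9-22. The 3 siCtrl arrays differed among themselves by less than the step to the siDLEU1-2 arrays, which lay close together. These are changes of 4.04-fold, 1.99-fold, and 2.27-fold, and KON thus fell just short of the 2-fold limit. On the rounded signals of the authors' series table, the same step in KON was 2.002-fold and passed it.

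The mean log2 fold change of AMOTL2 was 1.40 ± 0.54 (SD, n = 3), which limma called (adjusted p = 0.0426, 95% interval 0.76 to 2.04). A mean at least as high was seen for 568 of the 19956 probes, AMOTL2 included. The call was lost with any line left out: the mean was 1.09 without HSC-3, 1.60 without KON, and 1.51 without Ca9-22, and the adjusted p was 0.0972, 0.116, and 0.0972. It was also lost with no filter on dim probes (adjusted p = 0.176) and without the cell line in the model (adjusted p = 0.319), while the mean stayed at 1.40.

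ANKRD1 had the widest mean difference of the 9 tested genes. It encodes an ankyrin repeat protein best known from stressed heart and skeletal muscle, and it is one of the genes most often used to read YAP activity. Its probe lies at chr10:92672562-92672621 (minus strand). On the linear scale, the processed signal of the HSC-3 arrays was 3.92 after siCtrl against 319 after siDLEU1-2, while KON gave 92.3 and 316 and Ca9-22 7.07 and 394. ANKRD1 was not well above background after siCtrl in HSC-3 and Ca9-22, and it was in KON. The 3 siDLEU1-2 arrays lay within a narrow range, and the siCtrl arrays were farther apart.

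As levels, these are -5.79 and 0.67 for HSC-3, -1.48 and 0.37 for KON, and -5.15 and 0.70 for Ca9-22. In KON, where both arrays measured it, ANKRD1 was 3.60-fold higher after siDLEU1-2. In HSC-3 it was at least 19.0-fold higher and in Ca9-22 at least 17.6-fold higher, where the dim array was set to the lowest signal of any probe well above background on it. The mean log2 fold change of the processed values was 4.72 ± 2.51 (SD, n = 3), and limma did not call it (adjusted p = 0.0539, 95% interval 2.21 to 7.23). This mean rests on signals of HSC-3 and Ca9-22 that were not well above background, so its size is not a measured level. It was smaller and was called with the dim values raised to that floor (mean 3.41, adjusted p = 0.0292) and with normexp background correction (mean 2.32, adjusted p = 0.0196), and over the alternatives that kept it its adjusted p ran from 0.0196 to 0.319. With all 6 arrays required to be well above background it was not tested.

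CYR61 and CTGF encode CCN1 and CCN2, secreted proteins of the matrix that bind integrins, and both are classical YAP targets. CYR61 was bright on all 6 arrays, with no saturated spot (chr1:86048953-86049012, plus strand). It read 5.54 and 8.21 in HSC-3, while KON gave 6.52 and 6.67 and Ca9-22 6.82 and 8.17. It was 6.37-fold higher in HSC-3 and 2.55-fold higher in Ca9-22, but only 1.11-fold higher in KON. The KON array after siDLEU1-2 lay below the Ca9-22 array after siCtrl, so the groups overlapped.

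The mean log2 fold change of CYR61 was 1.39 ± 1.26 (SD, n = 3), nearly that of AMOTL2, with an SD more than double (adjusted p = 0.148). Without KON it was 2.01 and without HSC-3 it was 0.75, and limma called neither (adjusted p = 0.123 and 0.315). Whether the response of CYR61 differs between lines could not be tested, since each line has a single pair of arrays.

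CTGF was not tested because it was not well above background on either array of HSC-3 (chr6:132270130-132270189, minus strand). Its processed signal there was 8.40 after siCtrl and 16.5 after siDLEU1-2. In KON it was 190 after siCtrl and 145 after siDLEU1-2, and in Ca9-22 it was 88.7 and 368. CTGF was thus measured in 2 lines, and there it went opposite ways: 4.30-fold higher in Ca9-22 and 1.25-fold lower in KON. In both lines this is a difference between 2 arrays, with no test.

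KON had the smallest step of the 3 lines for ANKRD1, AMOTL2, and CYR61, and the lower of the 2 measured for CTGF. The fold change in KON was 3.60 for ANKRD1, 1.99 for AMOTL2, 1.11 for CYR61, and 1.25-fold lower for CTGF. Among the siCtrl arrays, that of KON had the highest level of CTGF and AMOTL2, and it was the only one that measured ANKRD1. AMOTL2 and CYR61 were lowest in HSC-3, which did not measure CTGF, and CYR61 was highest in Ca9-22. The order over 3 lines is a description, with 1 array behind each value. Each step was taken from the same siCtrl array, so the siCtrl levels and the steps are not separate observations.

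**Figure D3:**
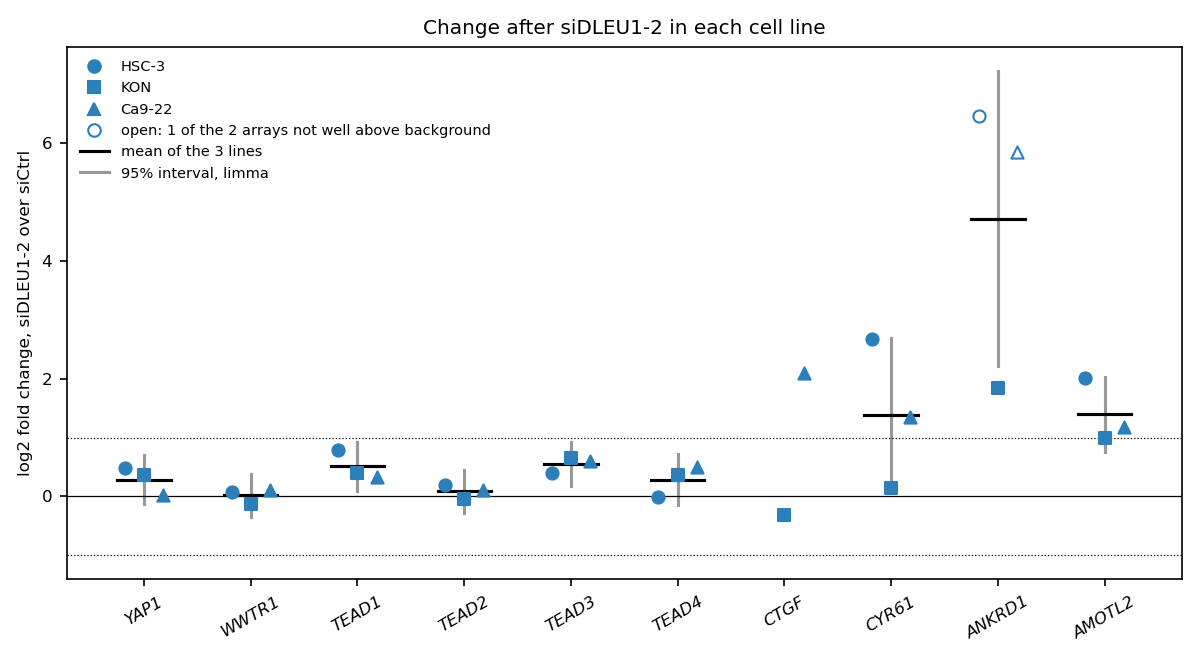
Log2 fold change of siDLEU1-2 over siCtrl in each cell line for the 10 genes, with the mean of the 3 lines as a black bar and its 95% interval from limma as a gray line. Open symbols have 1 array not well above background, and their values are not bounds. CTGF has no HSC-3 point and no mean, since neither HSC-3 array measured it. Dotted lines mark 2-fold. KON (squares) is the lowest point of each of the 4 target genes.

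For ANKRD1 and CYR61, the tested genes with the widest range over the 6 arrays, the genes whose levels ran most like theirs were looked up, by the root mean square (RMS) difference of levels after each probe was centered on its own mean. For ANKRD1 the nearest were HSD11B1 (0.73), DIO2 (0.79), and GAB2 (1.06), on a log2 range of 6.49. For CYR61, with a range of 2.67, they were RAB11FIP1 (0.25), SPOCK2 (0.35), and TMCC3 (0.36). The likeness to ANKRD1 rests in part on arrays that did not measure it. No test of likeness was made, and limma called none of these 6 probes.

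The genes upstream of YAP and TAZ were taken from a list of 34 Hippo regulators and TEAD cofactors. All are on the array, and 26 of them, with 40 probes, were tested. Of the 40 probes 2 rose and 2 fell, 1 of the latter a probe named MOB1A whose transcript is uncertain, which is 10.0% called, near the 8.5% over all probes, and the median log2 fold change was 0.06. The genes that rose were WWC1 and WWC2. They encode KIBRA and its relative, scaffolds that bind LATS kinases and act against YAP.

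WWC1 went from 3.21 to 5.48 in HSC-3, from 3.56 to 4.52 in KON, and from 2.66 to 4.06 in Ca9-22 (mean log2 fold change 1.55 ± 0.67, SD, n = 3; adjusted p = 0.0467). WWC2 was dim, and its siCtrl array in HSC-3 was not well above background. It read -3.78 and -2.66 in HSC-3, while KON gave -2.63 and -1.24 and Ca9-22 -2.65 and -1.23 (mean 1.31 ± 0.16, SD, n = 3; adjusted p = 0.0247). WWC2 passed the filter in HSC-3 only through the siDLEU1-2 array. It was over 2-fold in KON and Ca9-22, which measured it on both arrays, and at least 1.90-fold higher in HSC-3 where the dim array was set to its floor. A second WWC2 probe was not well above background on any array.

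TAOK1, a kinase that activates MST, fell: it read 2.76 and 1.86 in HSC-3, while KON gave 2.27 and 1.08 and Ca9-22 1.71 and 0.92 (mean -0.96 ± 0.21, SD, n = 3; adjusted p = 0.0361). The gene name MOB1A, a coactivator of the LATS kinases, has 3 tested probes, all lower in each line. The called one had a mean of -0.83 ± 0.06 (SD, n = 3; adjusted p = 0.0366). Its position in the files is on the plus strand of chromosome 2, opposite to the other 2, so it may not measure MOB1A. Those on the minus strand had means of -0.63 and -0.42, and limma called neither (adjusted p = 0.0694 and 0.122). LATS2, the kinase that phosphorylates YAP and TAZ, had the widest mean among those lower in each line that were not called. It read 1.60 and 0.95 in HSC-3, while KON gave 1.09 and -1.05 and Ca9-22 0.11 and -0.89 (mean -1.27 ± 0.77, SD, n = 3; adjusted p = 0.0798).

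LATS2 is also a known YAP target, and it and PTPN14, another of the regulators, stood in the list of 18 further YAP and TAZ targets too. Of these genes 13 were tested with 19 probes, and 3 probes of 2 genes rose and 0 fell. This is 15.8% called, against 8.5% of all probes in either direction and 3.98% higher, and 1 of the 3 is a dim probe that passed the filter in KON and Ca9-22 only through the siDLEU1-2 arrays. The median log2 fold change was 0.15. Of the 19 probes, 7 were higher in all 3 lines and 4 were lower in all 3 lines, against 26.9% and 26.7% of all probes. With 1 line left out, 0 of the 40 regulator probes and at most 1 of these 19 were called. In both lists 0 probes were called with no filter on dim probes or without the cell line in the model.

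CCDC80, which encodes a secreted matrix protein, rose by its brighter probe, measured on all 6 arrays. This went from 1.70 to 3.49 in HSC-3, from 0.76 to 2.61 in KON, and from 0.61 to 2.15 in Ca9-22 (mean 1.73 ± 0.17, SD, n = 3; adjusted p = 0.0231), over 2-fold in all 3 lines. A dimmer probe, the one not well above background after siCtrl in KON and Ca9-22, was 3.08-fold higher in HSC-3, at least 2.63-fold higher in KON, and at least 1.27-fold higher in Ca9-22. limma called it too (adjusted p = 0.0254), on signals that include these dim arrays, and the remaining CCDC80 probe was not tested. AXL, a receptor tyrosine kinase, went from 4.92 to 5.88 in HSC-3, from 3.71 to 4.56 in KON, and from 3.66 to 4.62 in Ca9-22. It rose by a nearly equal amount in each line (mean 0.92 ± 0.06, SD, n = 3; adjusted p = 0.0315), which stayed under 2-fold.

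Genes of both lists that were not tested, because neither array of 1 line was well above background, could still be read in the other lines. There were 4 such genes with both arrays measured in the remaining lines, and they are given as signals with no test. VGLL1, a vestigial-like cofactor that binds TEAD factors, had a processed signal of 207 on the siCtrl array of HSC-3 and 999.8 on its siDLEU1-2 array, and of 40.7 and 307 in Ca9-22, and KON did not measure it. After centering it was 5.25-fold and 7.81-fold higher. IGFBP3, a secreted binding protein of insulin-like growth factors, had 142 and 14953 in HSC-3 and 1092 and 5818 in KON, which is 114-fold and 5.60-fold higher, and Ca9-22 did not measure it. FOXF2, a forkhead transcription factor, went the other way, by 1.92-fold lower in KON and 2.32-fold lower in Ca9-22. TNIK, a kinase related to the MST kinases, was 1.35-fold lower in KON and 1.17-fold higher in Ca9-22. VGLL1 and IGFBP3 thus differed by more than 5-fold in each line that measured them, between 2 arrays each.

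Close relatives of the targets were covered by 8 genes of the CCN, muscle ankyrin repeat, and angiomotin families, of which 5 genes with 6 probes were tested. limma called 0 of 6, against 8.5% of all probes, and 3 of 6 had an unadjusted p below 0.05, against 29.5%. The widest were WISP2 (mean 1.38 ± 1.23, SD, n = 3; adjusted p = 0.145), NOV (1.24 ± 0.80; adjusted p = 0.0868), and ANKRD2 (1.06 ± 0.67; adjusted p = 0.0900), each higher in each line. NOV was not well above background after siCtrl in HSC-3 and passed the filter there only through the siDLEU1-2 array, so its mean includes a signal near background, and in HSC-3 it was at least 1.52-fold higher. AMOTL1, the nearest tested relative of AMOTL2, is also in the list of regulators. It was lower in each line by both of its probes, with means of -0.17 and -0.24, and neither was called.

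**Figure D4:**
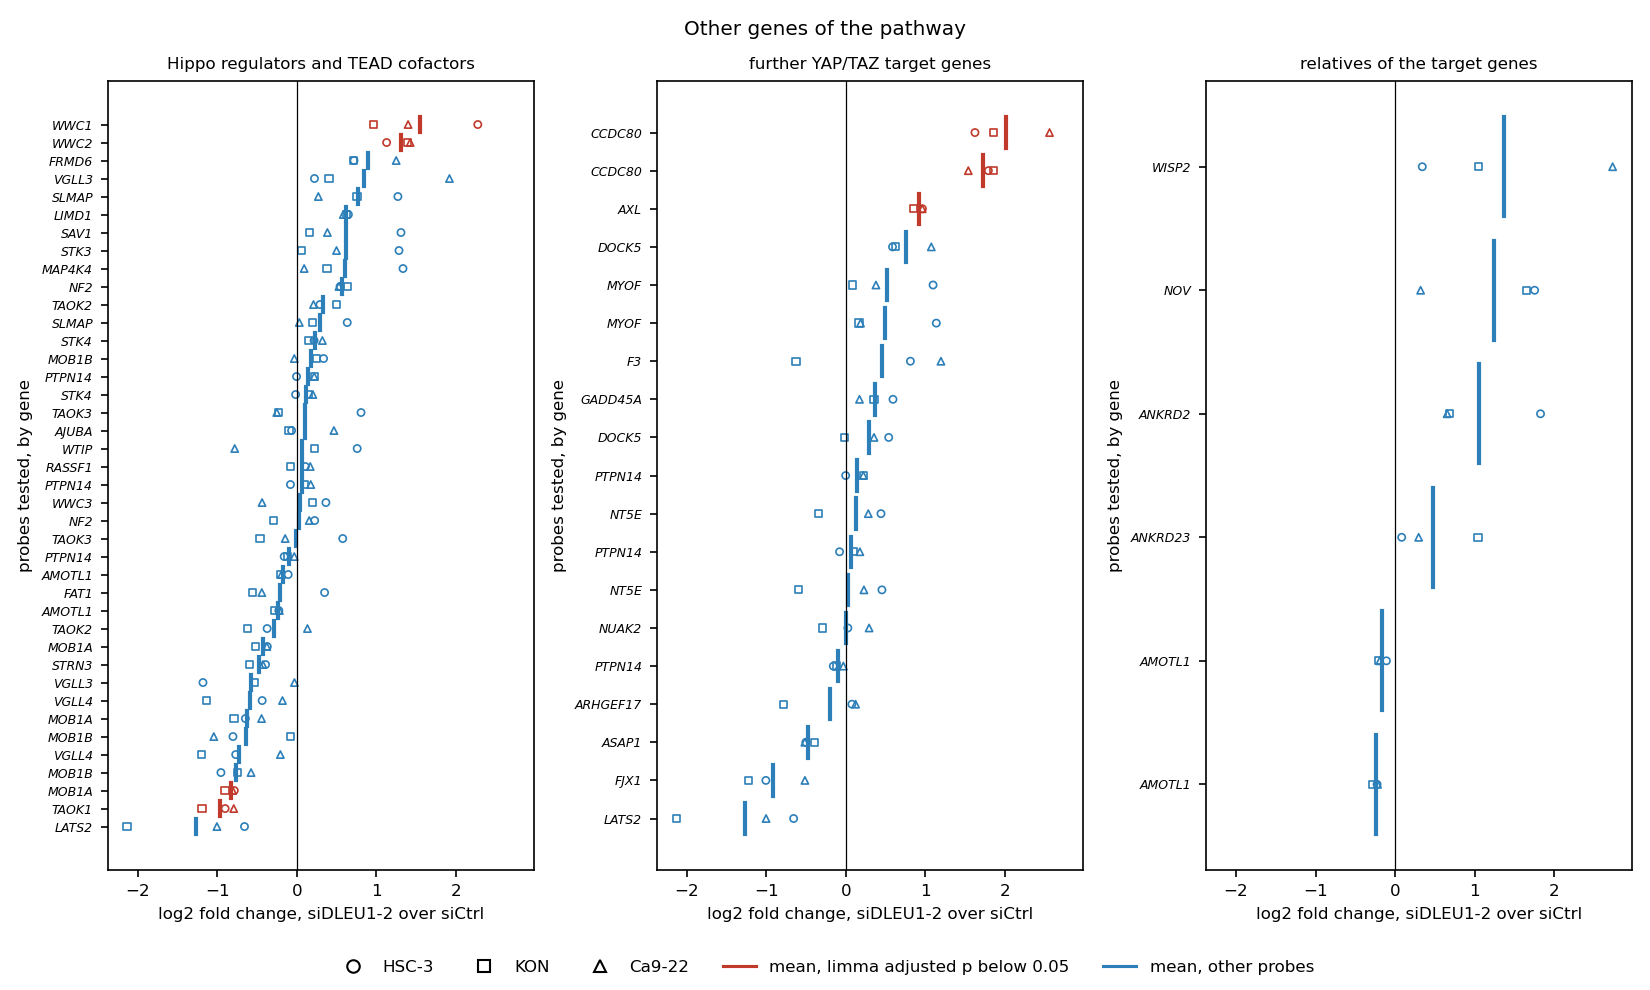
Log2 fold change of siDLEU1-2 over siCtrl for the tested probes of 3 gene lists around YAP and TEAD, one row per probe, with open symbols for the 3 lines and a bar for their mean (red where the limma adjusted p was below 0.05). Red bars stand at the upper end of the regulator and target lists, and near the lower end of the regulators next to LATS2, which is lowest and not red, and none is in the list of relatives.

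An siRNA can also act on transcripts that match bases 2 to 8 of its guide strand. The antisense strand is shown because these bases, in capitals, could pair with other RNAs.
siDLEU1-2 antisense strand: uUAAGUGCgauaaccccugua
The complementary heptamer, GCACTTA, is in 0 of the 11 probes of the 10 genes and in 57 of the 19956 probes kept (0.286%). With so low a share over all probes, 0 of 11 was likely from the start and says little about these genes. Probes hold 60 bases of a transcript each, so the rest of these transcripts was not searched.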

How the data were processed

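The 6 arrays measured 100 ng of RNA each, labeled with Cy3, from the siCtrl and siDLEU1-2 cells of every line. The authors deposited the scanner output of Agilent Feature Extraction (version 10.7 in the submitters' processing notes), with an intensity per spot after background subtraction and detrending, on a linear scale and not normalized between arrays. Their series table, also deposited, has these intensity values in rounded form (largest difference 0.497%). From these, log2 of the processed signal minus the array's 75th percentile was taken, without control and outlier spots, and spots of a probe were averaged. Of 50599 probes, 55 lacked a usable spot on some array. The 19956 probes kept were well above background (in at least 50% of spots) on 1 or more of the 2 arrays of each line.

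limma 3.58.1 in R 4.3.3 (lmFit, eBayes) was fitted with siRNA and cell line, the block that pairs the arrays, and p-values were Benjamini-Hochberg adjusted over the probes kept. Contrasts between lines came from the same fit. Deviations from the siRNA means correlated within pairs at 0.83, 0.81, and 0.82. The labels give no separate cultures within a line, and the number of arrays limits the precision. The fit was tested on simulated data. The 10 genes and the lists were chosen with earlier results of these data known. All 10 genes are named, with list genes that were called, over 2-fold in all lines, or among the 3 widest of their list by tested probes. List genes not tested but measured on both arrays of 2 lines were added after their values were seen. Where an array did not measure a probe, its bound was set by the lowest signal well above background or the probe's own, whichever was higher. Probe positions are those of the files (hg19), and promoter positions are GRCh38.p14, so the builds are not compared. Exons and protein sequences were not analysed here.

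The alternatives tried were the series table, normexp (offset 50), centering on probes detected on all arrays or on the median, quantile normalization, no filter or one for all 6 arrays, dim values raised to the floor, each line left out, no block, the mean of a gene's probes, other fold limits, and the methods' t-test. All arrays were on 1 slide, so a slide block could not be fitted.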

Additional observations from a re-analysis of the deposited data

Results flagged for a closer look

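CTGF moved in opposite directions in the lines that measured it: on the log2 scale, siDLEU1-2 differed from siCtrl by 2.10 in Ca9-22 and by -0.32 in KON. The difference between the lines was not tested, since each has 1 array per siRNA. With normexp background correction the values were 1.52 and -0.22, in the same directions.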

How the results depend on the processing

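Of the 10 genes, 1 was called after siDLEU1-2 (AMOTL2), and this count moved to 2 with normexp correction or where dim values took the value of the detection floor, ANKRD1 being added. Calls over all probes rose as well, from 795 higher and 902 lower to 1131 and 1177 with normexp and 934 and 1007 with the floor. The count of called genes fell to 0 with no filter on dim probes (4 of 11 probes with an unadjusted p below 0.05). It was also 0 with any 1 line left out (2 to 3 of 9). Over all probes these fits called 0 with no filter, 0 without HSC-3, 0 without KON, and 244 without Ca9-22. Without the block for the cell line, which drops the pairing of the arrays, the count was 0 (3 of 9 unadjusted), for the regulators 0 (2 of 40), and for the further targets 0 (3 of 19), and 0 probes were called in all. The methods' t-test gave 2 unadjusted and 0 after adjustment. In the main fit 5 of 9 had an unadjusted p below 0.05, against 29.5% of all probes. No such share over all probes is given for the other fits. The adjusted p of AMOTL2 was 0.176 with no filter and 0.319 without the block.

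Probes over 2-fold in all lines numbered 1, but 2 with the series table or a 1.5-fold limit, 0 where all 6 arrays had to be well above background, and 1 to 3 with a line left out, the 3 being without KON. KON against HSC-3 went from 4 called to 2 with no filter and to between 2 and 2 without Ca9-22, Ca9-22 against HSC-3 from 2 to between 1 and 1 without KON, and Ca9-22 against KON from 0 to 1 with centering on probes detected on all arrays. The regulators went from 4 probes called (15 of 40 unadjusted) to 7 with normexp. They went to 0 with no filter (15 of 59 unadjusted) and to 0 with any line left out. The further targets went from 3 (7 of 19 unadjusted) to 5 with normexp. They went to 0 with no filter (8 of 26) and to between 0 and 1 with a line left out. With normexp the calls over all probes rose too, to 1131 higher and 1177 lower from 795 and 902. In the main fit 29.5% of all probes had an unadjusted p below 0.05. The fold change of WWTR1 turned to -0.0512 with centering on the median, to -0.0048 with centering on detected probes, and ran from -0.027 to 0.0919 with a line left out. Leaving out a line also moved uncalled means by over 1.5 times: YAP1 was 0.19 without HSC-3, TEAD4 was 0.44 without HSC-3 and 0.18 without Ca9-22, and TEAD2 was 0.03 without HSC-3 and 0.15 without KON. TEAD2 was 0.01 with centering on the median. The mean of none of the other 8 tested genes changed direction under these alternatives. Centering on the median moved the median of all probes from 0.01 to -0.06. Signal near background limits ANKRD1 and CTGF, whose dim arrays give no level.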
